A study of Mus musculus with 6 samples.

Results

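A set of 7 genes of GABA signalling, 6 of them GABA-A receptor subunits and the other the GABA-synthesizing enzyme Gad1, were followed in the lungs of Cd-treated and control mice. Each gene was taken from a fixed list of names (Gabra2, Gabra3, Gabra5, Gabrb2, Gabre, Gabrr1 and Gad1) and read from the probe set paired with its symbol alone, so that 7 of 22180 named genes and 7 of 41345 probe sets are described. Each of the 7 had 1 such probe set, and none was lost to a filter. Cd-treated mice were male C57Bl6 animals that drank water with 10 mg/L CdCl2 for 20 weeks from 8 weeks of age, and control mice were of the same sex, strain and age (28 weeks) and drank water without added Cd. The study asked how this low oral dose alters gene expression in the lung. The paper describes mice caged in groups, with airway resistance measured under ketamine and xylazine before the lungs were taken. Inhaled methacholine was part of that measurement, and the cage of each mouse is not given. Whole lung RNA of 3 Cd-treated and 3 control mice, labelled as biological replicates, was hybridized to 1 Affymetrix Mouse Gene ST 2.0 array each. All values below are log2 robust multiarray average (RMA) values, in which 1 unit is a doubling of signal.

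GABA is the main inhibitory transmitter of the adult brain. It is made from glutamate by the decarboxylases Gad1 and Gad2, and it opens GABA-A receptors, which are chloride channels built of 5 subunits around a central pore. Alpha and beta subunits form the GABA binding site in most receptors, and the rho subunits can form channels of their own, best known from the retina. Outside the brain, GABA-A subunits have been described in airway epithelium and airway smooth muscle, and GABA synthesis in pulmonary neuroendocrine cells.

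None of the 7 genes passed an adjusted p of 0.05 from limma, nor an unadjusted p of 0.05. Over all named genes 1.19% had an unadjusted p under 0.05 (0.564% higher and 0.622% lower in Cd-treated lungs), and 0% had an adjusted p under 0.05. The adjusted p was 0.992 for each of the 7 genes. Taken as Cd-treated minus control, the log2 fold change was positive for 5 genes and negative for 2 (47.2% of all named genes were positive), with a median of 0.18 over the 7 genes, against -0.02 over all named genes. Leaving out Cd-treated replicate 3 took the median of the 7 to -0.01, control replicate 3 to 0.04 and Cd-treated replicate 1 to 0.31. For Gabre and Gad1 every Cd-treated array read above every control array, and for Gabrr1 every Cd-treated array read below every control array. Groups without overlap were thus seen in 3 of 7 genes, where 7.14% of all named genes had none, 3.81% higher and 3.33% lower in Cd-treated lungs. The 7 genes were proposed with earlier results of these arrays known, and no test was made of that count.

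The start regions of these 3 genes are shown because theirs were the groups that did not overlap. The windows run from 250 bases before to 50 bases after the annotated start and come from RefSeq on mouse build GRCm38.p6. Capitals mark a core of the metal response element, the site bound by the metal transcription factor MTF1 (TGCACNC or TGCGCNC, on either strand), and GC boxes (GGGCGG, on either strand).
Gabre, chrX:72274672-72274971, minus strand: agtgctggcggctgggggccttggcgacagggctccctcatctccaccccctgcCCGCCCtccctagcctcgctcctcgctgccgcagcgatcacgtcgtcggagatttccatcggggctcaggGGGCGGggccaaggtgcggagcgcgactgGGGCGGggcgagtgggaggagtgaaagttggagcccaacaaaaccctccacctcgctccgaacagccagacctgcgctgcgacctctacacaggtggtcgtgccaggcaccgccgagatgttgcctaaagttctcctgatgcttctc
Gabrr1, chr4:33132306-33132605, plus strand: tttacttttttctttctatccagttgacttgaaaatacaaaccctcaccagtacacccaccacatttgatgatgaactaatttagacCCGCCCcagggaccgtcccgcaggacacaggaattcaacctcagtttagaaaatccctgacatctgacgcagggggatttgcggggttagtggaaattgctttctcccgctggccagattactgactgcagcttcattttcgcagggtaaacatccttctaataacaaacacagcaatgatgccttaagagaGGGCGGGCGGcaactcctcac
Gad1, chr2:70561879-70562178, plus strand: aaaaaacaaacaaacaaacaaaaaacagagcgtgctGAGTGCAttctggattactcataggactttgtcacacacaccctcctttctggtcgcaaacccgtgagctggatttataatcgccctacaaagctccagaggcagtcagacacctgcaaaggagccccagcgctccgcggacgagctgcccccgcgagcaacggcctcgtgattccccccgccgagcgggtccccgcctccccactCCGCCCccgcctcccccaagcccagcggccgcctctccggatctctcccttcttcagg

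In the Gabre window the capitals are 3 GC boxes, and no metal response core was found. The Gabrr1 window held 3 GC boxes, a pair of which overlap near its end, and again no metal response core. The Gad1 window held 1 metal response core, the first run of capitals, and 1 GC box. Of 10 windows of the 7 genes, some genes having several, 2 held a metal response core (those of Gad1 and Gabra2) and 5 a GC box. Of all 32851 windows of this length, 25.7% held the metal response core and 35.7% a GC box. The windows also differed in base composition, with 24 CpG dinucleotides in that of Gabre, 21 in that of Gad1 and 9 in that of Gabrr1. A match is a run of letters and does not show that a factor binds.

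Gabre encodes the epsilon subunit, which in the rat and human brain is known from a few deep nuclei and makes receptors less sensitive to benzodiazepines. It had the most positive log2 fold change of the 7 genes. Gabre (probe set 17542194) read 6.15, 5.42 and 5.70 on the Cd-treated arrays, against 5.15, 5.42 and 5.27 on the control arrays. The groups only just parted, since Cd-treated replicate 2 read 5.422 and control replicate 2 read 5.418. The mean was 5.76 ± 0.37 in Cd-treated lungs and 5.28 ± 0.14 in control lungs (SD, n = 3 each), which put the log2 fold change at 0.48 (standard error 0.24, limma's unadjusted p of 0.0817 and adjusted p of 0.992). The 95% interval ran from -0.08 to 1.04. An exact permutation test, two-sided, gave p = 0.1, the smallest that 3 arrays against 3 can give. Without Cd-treated replicate 1, the highest array, the log2 fold change was 0.28, and leaving out Cd-treated replicate 2 gave 0.65. With array weights it was 0.30.

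Gad1 encodes the larger of the 2 glutamate decarboxylases, which makes most of the GABA of the resting nerve cell. Gad1 (probe set 17371636) read 5.02, 5.02 and 5.27 on the Cd-treated arrays, against 4.88, 4.81 and 4.63 on the control arrays. Cd-treated replicate 3 was the highest array and control replicate 3 the lowest. The mean was 5.10 ± 0.14 in Cd-treated lungs and 4.77 ± 0.13 in control lungs (SD, n = 3 each), and the log2 fold change was 0.33 (standard error 0.18, 95% interval -0.11 to 0.77, limma's unadjusted p of 0.118, exact permutation p = 0.1). It was 0.17 with array weights and 0.17 without replicate 3 of both groups, the second chosen after seeing the data. Gad1os, a long non-coding RNA gene whose RefSeq locus overlaps that of Gad1, was added after the values of Gad1 had been seen. Its log2 fold change was -0.05, with arrays that overlapped between the groups.

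Gabrr1 encodes the rho 1 subunit. It was the gene with the most negative log2 fold change of the 7. Gabrr1 (probe set 17412579) read 2.72, 2.81 and 2.81 on the Cd-treated arrays, against 3.58, 3.01 and 3.00 on the control arrays. The Cd-treated arrays lay close together, while control replicate 1 stood above the other control arrays. The mean was 2.78 ± 0.05 in Cd-treated lungs and 3.20 ± 0.33 in control lungs (SD, n = 3 each), and the log2 fold change was -0.42 (standard error 0.22, 95% interval -0.93 to 0.10, limma's unadjusted p of 0.101, exact permutation p = 0.1). Without control replicate 1 it was -0.22. On every array Gabrr1 read under that array's lower quartile, between the 7.97th and the 17.7th percentile.

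**Figure D1:**
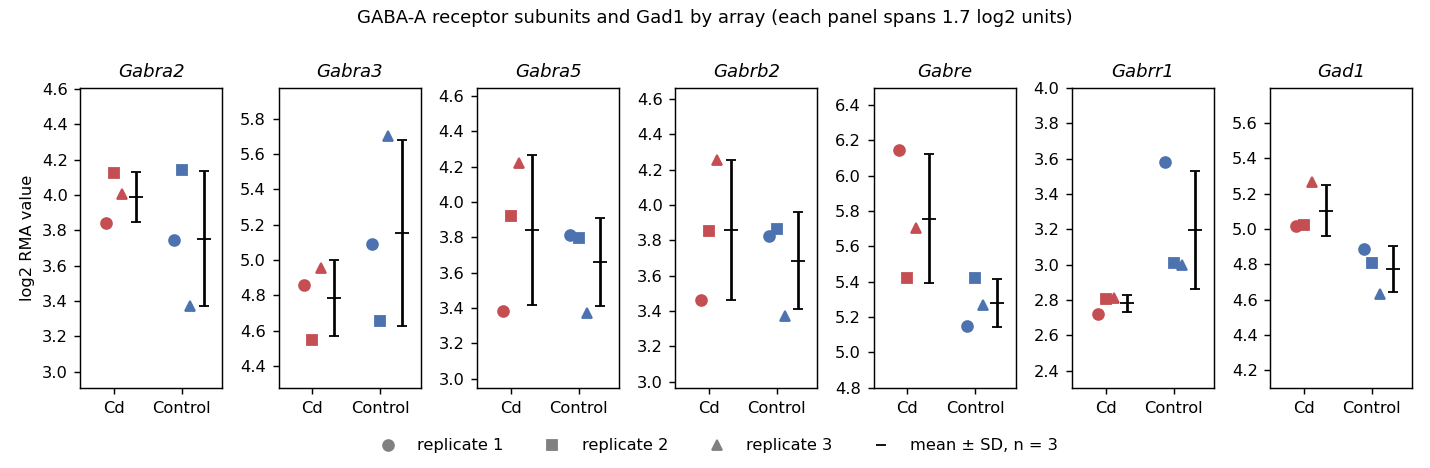
Log2 RMA values of the 6 GABA-A subunits and Gad1 on each array, with Cd-treated arrays in red and control arrays in blue, the marker shape giving the replicate and the bar the mean ± SD (n = 3). The groups do not overlap for Gabre, Gabrr1 and Gad1, and control replicate 3 is the lowest array for Gabra2, Gabra5, Gabrb2 and Gad1 and the highest for Gabra3.

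The alpha subunits help to decide where in the nerve cell a receptor sits and how it responds to benzodiazepines. Gabra3, the alpha 3 subunit (probe set 17542220), read 4.86, 4.55 and 4.96 on the Cd-treated arrays, against 5.09, 4.66 and 5.70 on the control arrays. The groups overlapped, and control replicate 3 was the highest array. The log2 fold change was -0.36 (standard error 0.30, 95% interval -1.06 to 0.34, limma's unadjusted p of 0.259). It was -0.09 without control replicate 3, -0.61 without control replicate 2 (limma's unadjusted p of 0.0709) and -0.49 with array weights (limma's unadjusted p of 0.00895 and adjusted p of 0.0938). Gabra3 also had the widest range of the 7 genes over the 6 arrays, 1.16.

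Gabra2, the alpha 2 subunit (probe set 17448577), read 3.84, 4.12 and 4.004 on the Cd-treated arrays, against 3.75, 4.14 and 3.37 on the control arrays. Control replicate 2 was the highest array and control replicate 3 the lowest, so that the control arrays enclosed all Cd-treated arrays. The log2 fold change was 0.24 (standard error 0.24, 95% interval -0.34 to 0.81, limma's unadjusted p of 0.364). Without control replicate 3 it was 0.04, and without control replicate 2 it was 0.43. With array weights it was 0.33 (limma's unadjusted p of 0.0238 and adjusted p of 0.143).

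Gabra5, the alpha 5 subunit of receptors outside the synapse, and Gabrb2, a beta subunit of the most common brain receptor, had nearly the same pattern over the arrays. Gabra5 (probe set 17491480) read 3.38, 3.92 and 4.22 on the Cd-treated arrays, against 3.81, 3.80 and 3.37 on the control arrays. Gabrb2 (probe set 17248539) read 3.46, 3.85 and 4.26 on the Cd-treated arrays, against 3.82, 3.86 and 3.37 on the control arrays. For both genes Cd-treated replicate 3 was the highest array, control replicate 3 the lowest, and Cd-treated replicate 1 came next above it. After each gene was centred on its own mean, the 2 profiles differed by a root mean square of 0.048, the smallest of the 21 pairs among the 7 genes, the others running from 0.20 to 0.63. The log2 fold changes were 0.18 (standard error 0.27, 95% interval -0.46 to 0.82) for Gabra5 and 0.17 (standard error 0.27, 95% interval -0.46 to 0.80) for Gabrb2, with limma's unadjusted p of 0.526 for the first and 0.541 for the second. Without Cd-treated replicate 3 they were -0.01 for Gabra5 and -0.03 for Gabrb2, without control replicate 3 they were 0.04 and 0.01, while leaving out Cd-treated replicate 1 gave 0.41 and 0.37.

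**Figure D2:**
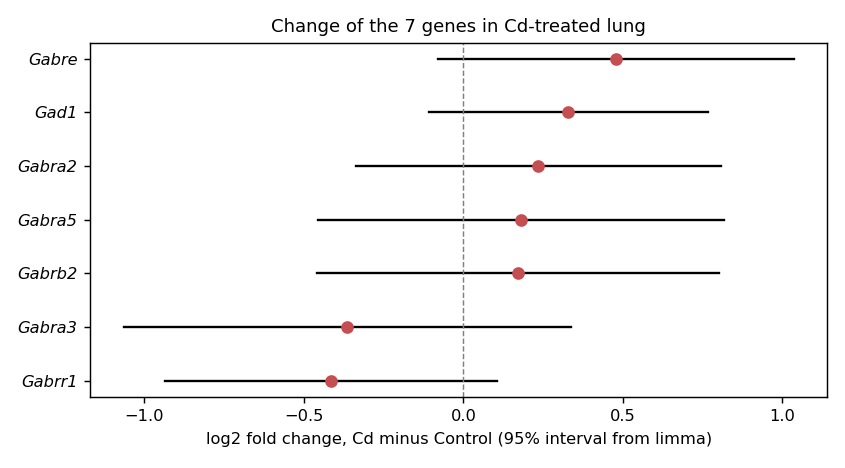
Log2 fold change, Cd-treated minus control, of the 7 genes on the horizontal axis (points), with the 95% interval from limma (lines, n = 3 arrays per group). Every interval includes 0, from Gabre at 0.48 (top) to Gabrr1 at -0.42 (bottom).

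Gabra2, Gabra5 and Gabrb2 were read near the lower quartile of their arrays, and that quartile was not level across the arrays. The lower quartile of the arrays ranged from 3.77 to 4.20, lowest on control replicate 3 and highest on Cd-treated replicate 3. Gabra5 and Gabrb2 read below it on 5 of 6 arrays and Gabra2 on 4 of 6, while Gabra3, Gabre and Gad1 read above it on every array. Taken relative to the lower quartile of the same array, the difference between Cd-treated and control means was 0.14 for Gabra2, 0.08 for Gabra5 and 0.08 for Gabrb2. With quantile normalization applied again their log2 fold changes were 0.14, 0.10 and 0.09. Relative to the quartile the difference was 0.38 for Gabre, 0.23 for Gad1, -0.46 for Gabra3 and -0.51 for Gabrr1. Probe sets differ in how strongly they bind, and these positions do not rank the genes by transcript abundance.

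Control replicate 3 stood apart in the means over skeletal muscle and squamous epithelium markers as well. The mean over 6 skeletal muscle markers lay between 4.74 and 5.16 on the Cd-treated arrays, against 4.71, 4.95 and 8.49 on control replicates 1, 2 and 3, and that over 4 squamous epithelium markers between 4.26 and 4.32 on the Cd-treated arrays, against 4.05, 4.10 and 6.09 on the control arrays. Of the squamous markers Krt13, Krt4 and Krt14 were highest on control replicate 3. Sprr3 was not, with 2.79, 2.99 and 3.14 on the Cd-treated arrays, against 2.57, 2.75 and 2.78 on the control arrays. The mean over 4 atrial cardiomyocyte markers was 6.65, 8.02 and 7.28 on the Cd-treated arrays, against 9.44, 8.41 and 8.60 on the control arrays, without overlap, and 3 of the 4 read lower after Cd with limma's unadjusted p under 0.05. The mean over 5 alveolar type 2 markers was 9.59, 9.78 and 9.54 on the Cd-treated arrays, against 9.85, 9.23 and 10.38 on the control arrays. That over 4 alveolar type 1 markers was 7.41, 7.71 and 7.45 on the Cd-treated arrays, against 7.86, 7.16 and 8.38 on the control arrays, and that over 3 endothelial markers was 7.25, 7.71 and 7.19 on the Cd-treated arrays, against 7.83, 7.08 and 8.48 on the control arrays. These lung lists were highest on control replicate 3, as was Gabra3, and lowest on control replicate 2, and each of their genes had a negative log2 fold change with no unadjusted p under 0.05 from limma. The mean over 3 club cell genes lay between 11.23 and 11.92 on all arrays. Means over 6 pulmonary neuroendocrine markers (4.85, 4.95 and 5.06 on the Cd-treated arrays, against 5.08, 5.01 and 4.94 on the control arrays) and over 6 neuronal markers (5.16, 5.39 and 5.37, against 5.35, 5.19 and 5.10) overlapped between the groups. No marker of the neuroendocrine and neuronal lists had an unadjusted p under 0.05 from limma. The part of these cell types in the values of the 7 genes was not tested. In whole lung RNA, fewer cells of a type and less RNA per cell cannot be told apart.

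**Figure D3:**
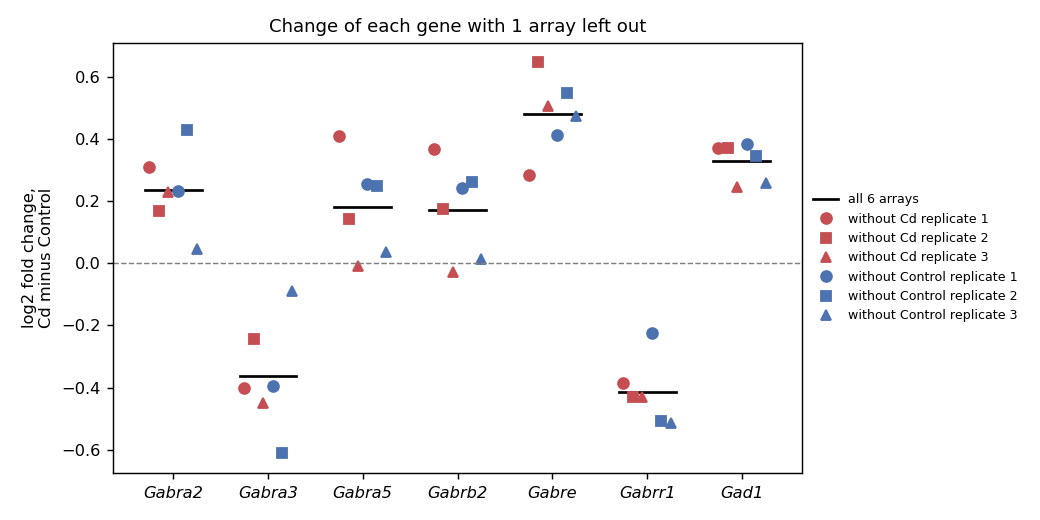
Log2 fold change, Cd-treated minus control, of each of the 7 genes (vertical axis) over all 6 arrays (black line) and with 1 array left out (markers, red for a Cd-treated and blue for a control array, the shape giving its replicate). Gabra5 and Gabrb2 cross 0 without Cd-treated replicate 3, and Gabra3 moves to -0.09 without control replicate 3, whereas Gabre, Gabrr1 and Gad1 keep their sign in all 6 cases.

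Several of these genes lie in clusters of GABA-A subunit genes, where some neighbours had the same sign and others did not. Gabre and Gabra3 lie on the X chromosome with the theta subunit gene Gabrq beside Gabra3, and their log2 fold changes were 0.48 for Gabre, -0.36 for Gabra3 and -0.06 for Gabrq. Gabrr1 lies on chromosome 4 next to Gabrr2, the rho 2 subunit gene, whose log2 fold change was 0.04. Gabra2 (0.24) lies on chromosome 5 between the genes Gabrg1 (0.08) and Gabra4 (-0.07), with Gabrb1 (0.23) after Gabra4. Gabra5 (0.18) lies on chromosome 7 next to Gabrg3 (0.37), and Gabrb2 (0.17) on chromosome 11 next to Gabra6 (0.08). None of the differences between neighbours was tested.

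Beside the 7 genes, a list of 36 other genes of GABA signalling was read, of which 31 had a probe set with 1 symbol here. None of the 31 had an unadjusted p under 0.05 from limma in either direction (1.19% over all named genes), and their median log2 fold change was -0.03. Of 10 other GABA-A subunits 6 were positive and 4 negative, with a median of 0.06 that was -0.02 with cyclic loess and with quantile normalization applied again. Gabrg3, a gamma subunit, had the smallest unadjusted p of them (log2 fold change 0.37, limma's unadjusted p of 0.229).

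Gabrp, the pi subunit of airway and other epithelia, read 8.76, 8.83 and 6.95 on the Cd-treated arrays, against 8.64, 8.54 and 8.62 on the control arrays. A single array, Cd-treated replicate 3, set its log2 fold change of -0.42 (limma's unadjusted p of 0.422). Of the 3 club cell genes, Scgb3a2 (10.64) and Cyp2f2 (10.22) were lowest on the same array, while Scgb1a1, the most abundant secretory product of these cells, read 12.82 there, within its range on the other arrays. Their part in the value of Gabrp was not tested.

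GABA-B receptors, which act through G proteins, had log2 fold changes of -0.16 for Gabbr1 and -0.03 for Gabbr2. Among 4 genes of GABA synthesis, breakdown and vesicle loading, Aldh5a1, the mitochondrial enzyme of the last step of GABA breakdown, read 5.21, 5.12 and 4.82 on the Cd-treated arrays, against 4.63, 4.76 and 4.80 on the control arrays. Its groups did not overlap, with Cd-treated replicate 3 just above control replicate 3, and its log2 fold change was 0.32 (limma's unadjusted p of 0.134). Gad2, the smaller decarboxylase, and Abat, the GABA transaminase, had log2 fold changes of 0.22 and 0.06 (limma's unadjusted p of 0.314 and 0.759). Of the 3 GABA transporters measured, Slc6a11 had 0.33, Slc6a12 had 0.10 and Slc6a13 had -0.02.

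All 10 genes of receptor anchoring and trafficking had a negative log2 fold change, with a median of -0.22 and none past the test. Gabarap, which binds GABA-A receptors and belongs to the autophagy machinery, had -0.38, Trak2, a motor adaptor, had -0.36 and Gabarapl2 had -0.22 (limma's unadjusted p of 0.257, 0.288 and 0.338). Control replicate 3 was the highest array for 7 of the 10 genes and Cd-treated replicate 3 the lowest for 6. The median was -0.08 without the first and -0.10 without the second, and without both it was 0.04, with 6 genes positive. With cyclic loess it was -0.12, all 10 still negative. With array weights it was -0.08, with 6 genes negative and 4 positive. The chloride carriers set the direction of chloride flow through the channel. Of these, Slc12a2 read 7.53, 7.59 and 6.80 on the Cd-treated arrays, against 7.63, 7.61 and 8.33 on the control arrays. Its groups did not overlap. Control replicate 3 was its highest array and Cd-treated replicate 3 its lowest, well apart from the other arrays. Its log2 fold change was -0.55 (limma's unadjusted p of 0.116), and that of Slc12a5, the carrier of mature neurons, was 0.09. Among the 31 genes read beside the 7, only Aldh5a1 and Slc12a2 had groups without overlap, where 7.14% of all named genes had them.

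**Figure D4:**
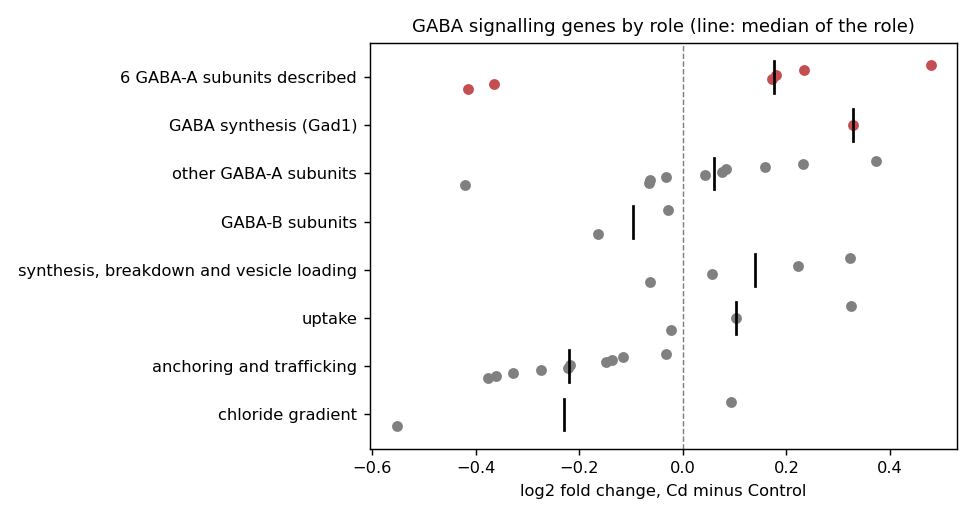
Log2 fold change, Cd-treated minus control, of 38 GABA signalling genes by role, with the 7 genes described in red, the other genes in grey and the median of each role as a black line. The 10 anchoring and trafficking genes all lie below 0 and the receptor subunits on both sides of it, and none of the 38 had an unadjusted p under 0.05 from limma.

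Genes whose pattern was most like that of Gabra3, the gene with the widest range, were sought among 18675 named genes by the root mean square difference of centred log2 values over the 6 arrays. The closest were Ndufa4l2 (0.049), a subunit-like protein of the respiratory chain, Rfesd (0.064), Cacna2d1 (0.065), a calcium channel subunit of muscle and nerve, Fundc2 (0.072) and Cys1 (0.076), where the median over all genes compared was 0.40. All 5 were highest on control replicate 3, as Gabra3 was. The likeness is a description over 6 arrays.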

How the data were processed

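Lung RNA of 3 Cd-treated and 3 control mice was extracted, amplified with a NuGEN Ovation kit and hybridized to Affymetrix Mouse Gene ST 2.0 arrays. The authors deposited log2 RMA values from the R package oligo, that is, probe signals corrected for background, normalized by quantiles and summarized by probe set. The methods name an Affymetrix annotation release for the transcripts, while the version of oligo and the genome build are not given in the sources used here. Medians ranged from 4.86 to 5.12 over the arrays, which correlated with each other at 0.82 to 0.971. The number of arrays limits the precision.

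Symbols came from the array annotation, and all 7 genes matched RefSeq by gene number. A gene with several probe sets was read from the one whose mean over the arrays was highest. Groups were compared with limma 3.58.1 in R 4.3.3 (group as the only term, moderated test, Benjamini-Hochberg adjustment over all 41345 probe sets, array control probe sets included), which was tested on simulated data. The prior added 3.06 degrees of freedom. Exact permutation tests were two-sided. The 7 genes and all lists were chosen with earlier results of these data known. Named were the 7 genes, at most 3 genes of each other role with the smallest unadjusted p, neighbours in a cluster (chosen after their values were seen), and the 5 genes nearest in pattern to the gene with the widest range, unnamed gene models and small RNAs left out. The comparison was repeated with each array left out, with array weights, after cyclic loess or a further quantile normalization, with the replicate number as a block, with a trended and robust prior, with the methods' t-test, without dim probe sets, with probe sets of 1 symbol only and with probe sets averaged by gene. Leaving out replicate 3 of both groups was added after the data were examined. Some genes of the lists were not analysed here.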

Additional observations from a re-analysis of the deposited data

How the results depend on the processing

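Under 16 alternatives Gabre and Gad1 kept a positive and Gabra3 a negative log2 fold change, and Gabra2 (positive) and Gabrr1 (negative) kept theirs in the 15 in which they were measured, as they and Gabra5 and Gabrb2 are left out with dim probe sets. With single arrays left out Gabra5 lay between -0.0097 and 0.41 and Gabrb2 between -0.028 and 0.37, the lowest values without Cd-treated replicate 3 and the highest without Cd-treated replicate 1, and they were negative without replicate 3 of both groups, chosen after seeing the data (-0.15 and -0.19). No alternative but array weights brought a gene of the 7 to an adjusted p under 0.05 from limma. With array weights 1 gene did, Gabrr1 (log2 fold change -0.70, limma's adjusted p = 0.0463), as did 208 of 22180 named genes. Under the other alternatives that measured Gabrr1 its adjusted p was 0.820 to 1.00. Also with array weights, 3 of the 7 (Gabra2, Gabra3 and Gabrr1) and 6 of the 31 other genes had an unadjusted p under 0.05. So had 4589 of all named genes. Those weights were 5.93 for control replicate 1, the array on which Gabrr1 read highest, and 6.41 for Cd-treated replicate 2. They were at most 0.60 for the other arrays. The methods' t-test gave 1 of the 7 genes an unadjusted p under 0.05, Gad1 (0.0424, and 0.987 after adjustment), and leaving out single arrays gave between 0 and 1, the 1 being Gabre without Cd-treated replicate 2 (0.0434 from limma). The median log2 fold change of the 7 genes was 0.33 over the 3 left without dim probe sets, lay between -0.0097 (without Cd-treated replicate 3) and 0.31 (without Cd-treated replicate 1) with single arrays left out, was 0.036 without control replicate 3, and was -0.15 without replicate 3 of both groups. Named genes with an unadjusted p under 0.05 numbered 263 over all arrays, 579 by the methods' t-test, 404 with probe sets of 1 symbol only, 415 with probe sets averaged by gene, and between 130 and 639 with single arrays left out. With the replicate number as a block the count was 69, and no gene of the 7 was among them. The labels do not say that same-numbered mice were paired. Deviations of same-numbered arrays correlated at -0.49, 0.07 and -0.51 for replicates 1, 2 and 3. Taken from means of 3 arrays, these correlations cannot show whether the mice were paired. With 3 arrays per group, changes of the size seen here could not be told from the spread between arrays.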
